A study of Mus musculus with 8 samples.

Results

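The genes described here encode subunits of the mitochondrial respiratory chain and of ATP synthase, measured in the colon of mice with and without epithelial Indian hedgehog. They were chosen by name: every gene of the array platform whose symbol begins with the prefix of a nuclear-encoded subunit family (Nduf with a, b, c, s or v, Sdh with a to d, Uqcr, Cox with 4 to 8, and Atp5), without the muscle isoforms Cox7a1 and Cox8b. The rule reads names and no measured value, and it was drawn up with earlier results of these data known. The rule gave 83 genes, read by 105 probes, of 16593 genes with a symbol on the platform. Of these, 77 encode subunits, with 34 in complex I, 3 in complex II, 8 in complex III, 16 in complex IV and 16 in complex V. The other members are 5 Ndufaf genes, whose products help to assemble complex I, and the pseudogene Ndufs5-ps, whose probe may also read its near-identical parent gene.

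The respiratory chain sits in the inner mitochondrial membrane. Complex I takes electrons from NADH and complex II takes them from succinate. Both pass them through ubiquinone to complex III, through cytochrome c to complex IV, and there to oxygen, while complexes I, III and IV pump protons out of the matrix. Complex V, the ATP synthase, lets the protons return and makes ATP. In the colon, differentiated epithelial cells at the top of the crypt oxidise butyrate from bacterial fermentation as a main fuel and depend on this chain.

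RNA came from whole colons of 8 C57BL/6 mice, 4 of each genotype, hybridised to 1 Illumina beadchip. Knockout mice were Villin-CreERT2 Ihh fl/fl, so that tamoxifen switches on a recombinase in the intestinal epithelium and Ihh is deleted there and not in other cells. Wildtype mice were Villin-CreERT2 Ihh+/+ and carried the same recombinase. Both groups received 1 mg tamoxifen by intraperitoneal injection for 5 days in a row, and the colon was removed at day 7. The sources used here do not state the age of the mice. The titles number 4 colons per genotype, taken here as 4 mice; if any shared an animal, p-values measure only the spread between these samples.

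Mean probe intensity was 902.4 to 1258 per array, and 14465 to 15040 of 25697 probes were detected on an array. A probe was tested where its detection p-value was under 0.05 on at least 4 arrays, which left 14754 probes and 10184 named genes. The probe of Ihh, the targeted gene, averaged a log2 intensity of 10.39 ± 0.153 over wildtype and 9.34 ± 0.245 over knockout mice (SD, n = 4 each). The groups did not overlap, and the difference of -1.05 (SE 0.149) had a limma adjusted p = 0.130. The sources used here do not say whether that probe lies in the deleted exons. Several arrays stood apart. Knockout 4 had the lowest mean correlation with the other arrays (0.956, with pairwise values of 0.943 to 0.985) and a colonocyte marker score of -0.918, against 0.00539 to 0.293 in the other 7 mice. Skeletal muscle transcripts were high in wildtype 2, wildtype 3, knockout 2 and knockout 4, with scores of 1.01 to 2.28 against -1.52 to -1.31 in the other mice. Sex-linked transcripts were of the male kind in 1 wildtype and 3 knockout mice. A score here is the mean, over the genes of a list, of the log2 intensity minus that gene's mean over the 8 arrays. Wildtype arrays lay at positions A to D of the chip and knockout arrays at E to H.

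No nuclear-encoded respiratory chain gene of the rule passed the test for a difference between the genotypes. Subunits encoded in mitochondrial DNA are not covered, since 0 of 26 symbols searched for them were on the platform. Of the 83 genes 78 were tested, and 72 of these encode subunits. By limma, 0 of them had an adjusted p under 0.05, where 2 of all 10184 named genes did (0.0196%), the same 2 that were called among all 14754 probes (0.0136%). At an unadjusted p under 0.05 there were 2 subunit genes (2.78%), Atp5o and Cox6b2, against 1124 of all named genes (11.0%). The groups did not overlap for 2 subunit genes (2.78%), Atp5o with higher and Cox7a2l with lower values in the knockout, against 7.68% of all named genes. By value, knockout mice were higher for 39 subunit genes and lower for 33, and the median log2 difference was 0.018 beside -0.0047 over all named genes. The split moved to 66 higher under median scaling of the arrays and to 37 under cyclic loess, in place of the quantile normalization used throughout. In whole tissue, fewer cells of a type and less RNA per cell cannot be told apart in any of these values.

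The sizes of the differences were small in the fit with genotype alone. For 64 of the 72 subunit genes (88.9%) the log2 difference was under 0.2 in either direction, beside 58.1% of all named genes. For 61 (84.7%) the whole 95% interval lay within a 1.5-fold change, beside 54.0% of all named genes. The median standard error was 0.131 for subunit genes and 0.165 for all named genes. Both limits were chosen after the values had been seen. The 61 became 27 when the 4 mice high in skeletal muscle transcripts were left out, which leaves 2 mice per genotype. With array position added to the fit, 4 intervals lay within 1.5-fold and 18 differences were under 0.2. Positions A to D were all wildtype and E to H all knockout, so that fit can hardly separate position from genotype. Many members lay near the top of the scale, with a mean log2 intensity over 14 for 21 subunit genes, where the highest value on any array was 15.87, and a loss of contrast there was not tested. The subunit genes Ndufs1, Uqcrfs1, Uqcrq, Cox7b2 and Cox8c, each with 1 probe, were detected on 0 of 8 arrays and were not tested. An undetected probe does not show that its gene is silent.

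**Figure D1:**
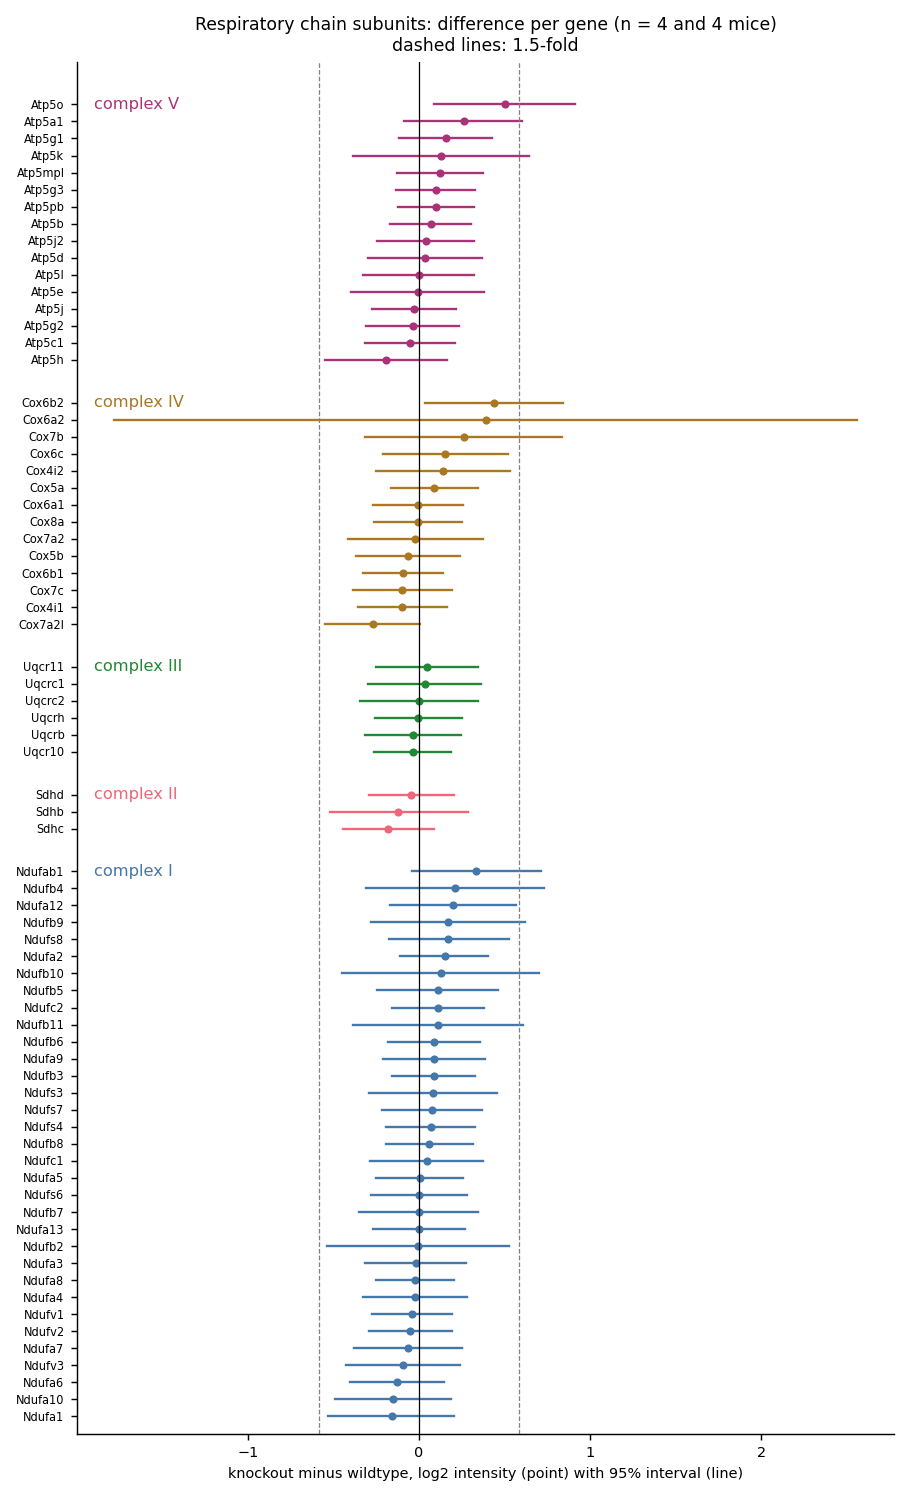
Log2 difference, knockout minus wildtype, for each of the 72 subunit genes tested, by complex, with its 95% interval (n = 4 and 4 mice). Dashed lines mark a 1.5-fold change, and 61 of the 72 intervals lie within them. The interval of Cox6a2, the muscle isoform of a complex IV subunit, is by far the widest drawn.

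Complex I, the NADH dehydrogenase, had 33 tested subunit genes, of which 20 were higher and 13 lower by value in the knockout. Their differences ran from -0.16 to 0.33 with a median of 0.061, which was -0.0055 without knockout 1. Under median scaling 31 of the 33 were higher with a median of 0.17, and with array position added 32 were higher with a median of 0.34. The core subunits, which carry the flavin and the iron-sulphur clusters, gave a median of 0.075 over 5 tested of 6 genes, and the 28 accessory subunits gave 0.052. The smallest p in the complex belonged to Ndufab1, the mitochondrial acyl carrier protein, which is both an accessory subunit and a carrier in fatty acid synthesis. Its log2 intensity was 8.11, 8.01, 8.35 and 7.66 in the wildtype and 8.40, 8.18, 8.61 and 8.29 in the knockout mice. The groups overlapped, and wildtype 4 was the lowest mouse. The difference was 0.33 (SE 0.167) with a limma adjusted p = 0.488.

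The next complex I genes by p lay closer to 0. Ndufs8, a core subunit that holds iron-sulphur clusters on the path to ubiquinone, read 12.93, 13.13, 13.20 and 12.58 in wildtype and 13.24, 13.16, 13.20 and 12.95 in knockout mice. Both number 4 mice were the lowest of their group, and the difference was 0.17 (SE 0.155). The accessory subunits Ndufa12 and Ndufa2 differed by 0.20 (SE 0.163) and 0.15 (SE 0.113). Ndufa6, an accessory subunit of the LYR family that helps anchor the acyl carrier protein, differed by -0.13 (SE 0.122), with values of 14.12 to 14.31 in wildtype and 13.82 to 14.24 in knockout mice. The limma adjusted p of these genes was 0.622 to 0.693. Ndufv1, the flavin-binding core subunit, stayed at 13.46 ± 0.0284 over wildtype and 13.42 ± 0.116 over knockout mice (SD, n = 4 each), an example picked after its values were seen. Ndufa4, named for complex I and also described as a subunit of complex IV, differed by -0.025 (SE 0.134). Counting it in complex IV left the medians at 0.064 and -0.0045.

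Of the 5 complex I assembly factors, 4 were higher by value in the knockout and the median was 0.086. Ndufaf4, an early assembly factor, averaged 11.20 ± 0.164 over wildtype and 11.47 ± 0.250 over knockout mice (SD, n = 4 each), a difference of 0.27 (SE 0.153, limma adjusted p = 0.532). Ndufaf7, a methyltransferase that modifies a core subunit, differed by -0.0051 (SE 0.104). Both were picked as examples after their values were seen. Ndufs5-ps differed by 0.13 (SE 0.174).

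Complex II, succinate dehydrogenase, links the chain to the citric acid cycle, and its 3 measured genes were all lower by value in knockout mice. The median difference was -0.12, between -0.021 and -0.15 under the scalings tried, and 0.20 once array position was added. Without wildtype 1 it was -0.0053 and Sdhd was higher by 0.02, and under median scaling Sdhd was higher by 0.063. Sdhb, the iron-sulphur subunit, read 12.53, 12.25, 12.22 and 11.81 in wildtype and 12.31, 12.22, 12.01 and 11.81 in knockout mice. The groups covered nearly the same range, with wildtype 1 the highest, and the difference was -0.12 (SE 0.178). The other Sdhb probes gave -0.0834 and -0.0927. Sdhc, a membrane anchor that binds heme, read 12.65, 12.63, 12.61 and 12.95 in wildtype and 12.59, 12.63, 12.47 and 12.45 in knockout mice. The groups overlapped between 12.61 and 12.63, wildtype 4 stood above the rest, and the difference was -0.18 (SE 0.118, limma adjusted p = 0.578). A second, much dimmer Sdhc probe gave 0.192 (SE 0.310), the opposite sign. Sdhd, the other anchor, differed by -0.044 (SE 0.109). Sdha, the flavin subunit, was not analysed here.

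Complex III, the cytochrome bc1 complex, was nearly level between the genotypes. Its 6 tested genes differed by -0.04 to 0.05, with 3 higher and 3 lower by value and a median of -0.0017. That median had the opposite sign in 10 of 22 other settings, with 0.11 under median scaling. Uqcrc1, a core protein on the matrix side, read 13.34, 13.20, 13.45 and 12.89 in wildtype and 13.45, 13.23, 13.19 and 13.14 in knockout mice, so the ranges overlapped and wildtype 4 was again the lowest mouse. The difference was 0.034 (SE 0.147). Uqcrh, the hinge protein at the cytochrome c1 surface, differed by -0.0048 (SE 0.112), and the small subunits Uqcr11, Uqcrb and Uqcr10 differed by 0.046, -0.034 and -0.037. A second Uqcr10 probe gave 0.0508. Every limma adjusted p in the complex was 0.905 or more.

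Complex IV, cytochrome c oxidase, had differences from -0.27 to 0.44 among its members, a spread close to that of complex V, from -0.19 to 0.50. Of its 14 tested genes 6 were higher and 8 lower by value, with a median of -0.0042. That median had the opposite sign in 10 of 23 other settings, with 0.12 under median scaling. Cox7a2l, a protein that joins complexes III and IV into supercomplexes, read 12.63, 12.61, 12.51 and 12.73 in wildtype and 12.48, 12.36, 12.47 and 12.09 in knockout mice. Every knockout mouse lay below every wildtype mouse, by a narrow margin between wildtype 3 and knockout 1. The difference was -0.27 (SE 0.124, 95% interval -0.55 to 0.0079, limma adjusted p = 0.470). Knockout 4, the mouse with the low colonocyte marker score, was the lowest, and without it the difference was -0.18. The share of that score in the difference was not tested. The C57BL/6 strain is known to carry a shortened allele of this gene.

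Several complex IV subunits exist as a general isoform and a tissue isoform. Cox6b2, a form of the intermembrane-space subunit known from testis, read 7.42, 7.27, 7.18 and 6.93 in wildtype and 7.37, 7.38, 8.01 and 7.79 in knockout mice. Knockout 3 and knockout 4 were above all other mice, and the other knockout values lay within the wildtype range. The difference was 0.44 (SE 0.179, limma adjusted p = 0.440) and 0.31 to 0.53 when each mouse was left out in turn. It was 0.24 without background correction and in the authors' processed values, and 0.28 with the sex pattern as a covariate. A second Cox6b2 probe was detected on 0 of 8 arrays. Its general partner Cox6b1 read 14.42 to 14.63 in wildtype and 14.33 to 14.51 in knockout mice, a difference of -0.095 (SE 0.103). Cox4i1, the general form of the subunit through which ATP regulates the enzyme, differed by -0.10 (SE 0.116). Cox4i2, the form known from lung and induced by low oxygen, differed by 0.14 (SE 0.172), with 5.73 to 6.41 in wildtype and 5.85 to 6.25 in knockout mice. The Cox4i2 difference was 0.041 without background correction and in the authors' processed values.

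Cox6a2, the heart and skeletal muscle form of subunit VIa, was high in the mice with high skeletal muscle transcripts, in both genotypes. It read 4.85, 7.71, 7.45 and 5.84 in wildtype and 5.28, 8.99, 5.21 and 7.92 in knockout mice, and was detected in 3 wildtype and 2 knockout mice. The high mice were wildtype 2, wildtype 3, knockout 2 and knockout 4, the same mice as in the skeletal muscle list, where 18 of 23 listed genes were tested and 3 of those 18 were lower by value in the knockout. Between the genotypes it differed by 0.39 (SE 0.959, limma adjusted p = 0.894). In a fit with genotype and the skeletal muscle score, its slope was 0.977 log2 units per unit of score (SE 0.0646, limma adjusted p = 0.000218), and it was the only one of the 78 tested members called, where 51 of all named genes were (0.501%). The marker list and this slope were chosen after the data had been seen. Cox6a2 also passed the detection filter largely through the mice high in these transcripts, so its slope and p-value are a description and no independent test. The slopes of the other 77 members lay between -0.155 and 0.0767, with a median of -0.016 beside -0.0058 over all named genes, and the next in size, Cox7b, had a limma adjusted p = 0.998.

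Cox6a1, the form of the same subunit made in most tissues, read 14.83, 14.82, 14.93 and 14.72 in wildtype and 14.95, 14.85, 14.89 and 14.59 in knockout mice. It was level across mice high and low in skeletal muscle transcripts, and the difference between genotypes was -0.0039 (SE 0.116). A second Cox6a1 probe gave -0.00302. Of the other general forms, Cox7a2 differed by -0.021 (SE 0.173) and Cox8a by -0.0045 (SE 0.114). Cox7b and Cox6c, nuclear-encoded subunits around the catalytic core, differed by 0.26 (SE 0.255) and 0.15 (SE 0.160). The Cox7b difference was 0.45 without wildtype 1, 0.059 without knockout 3, 0.85 with array position added and 0.052 with the sex pattern as a covariate.

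**Figure D2:**
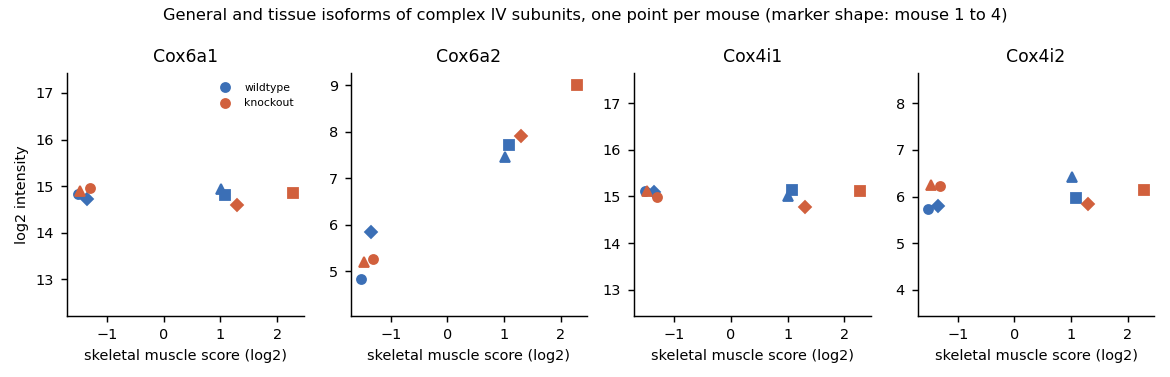
Log2 intensity of Cox6a1, Cox6a2, Cox4i1 and Cox4i2 (vertical axes, each spanning the same number of log2 units) against the skeletal muscle score of the same mouse (horizontal axis), 1 point per mouse, blue for wildtype and orange for knockout. Cox6a2 runs from 4.85 in wildtype 1 to 8.99 in knockout 2 along the score, while the other 3 genes stay level.

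Complex V, the ATP synthase, had 16 tested genes, of which 10 were higher and 6 lower by value in the knockout. The median was 0.054, between 0.0085 and 0.15 under the scalings tried, and -0.025 without wildtype 4. The F1 part, which holds the catalytic head and the central stalk, gave a median of 0.033 over 5 genes. The peripheral stalk and membrane part gave 0.097 over 11 genes. Atp5o, the oligomycin sensitivity conferring protein that ties the peripheral stalk to the F1 head, had the smallest p of all members. It read 10.21, 10.25, 10.42 and 9.55 in wildtype and 10.58, 10.69, 10.61 and 10.54 in knockout mice. Every knockout mouse lay above every wildtype mouse, and the wildtype values were spread by the low value of wildtype 4, with SDs of 0.383 in wildtype and 0.0629 in knockout mice. The difference was 0.50 (SE 0.183, 95% interval 0.09 to 0.91), with a limma adjusted p = 0.407, and it was 0.31 without wildtype 4.

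The other ATP synthase genes were closer to level. Atp5a1, the alpha subunit of the head, read 13.18, 12.76, 12.76 and 12.60 in wildtype and 13.01, 12.97, 13.33 and 13.03 in knockout mice, with wildtype 1 inside the knockout range. The difference was 0.26 (SE 0.152, limma adjusted p = 0.541). Atp5h, the d subunit of the peripheral stalk, differed in the other direction by -0.19 (SE 0.158), with knockout 4 at 12.49 and the other mice at 12.96 to 13.24. The 3 genes for the c subunit, whose ring turns in the membrane, encode the same mature protein, and they differed by 0.16 (Atp5g1, SE 0.120), -0.037 (Atp5g2, SE 0.121) and 0.10 (Atp5g3, SE 0.102). Atp5mpl, a small membrane subunit, differed by 0.12 (SE 0.111).

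**Figure D3:**
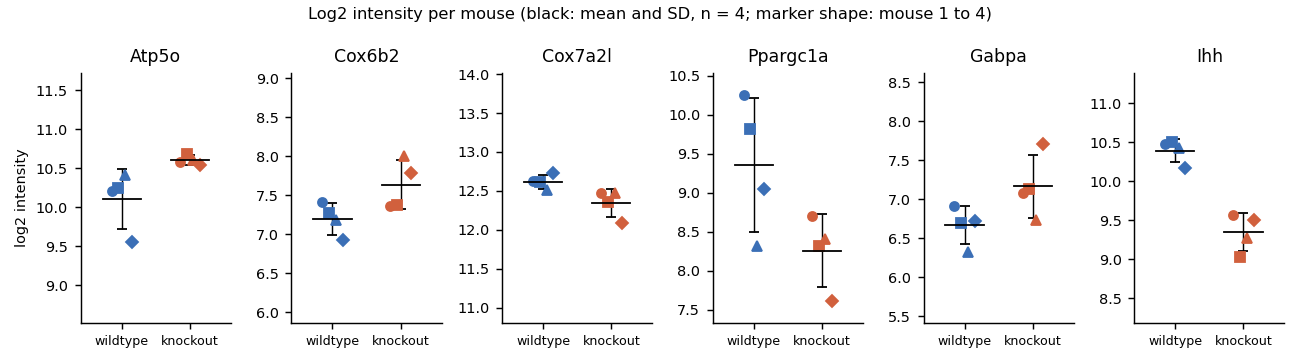
Log2 intensity per mouse (vertical axes) of Atp5o, Cox6b2, Cox7a2l, the biogenesis regulators Ppargc1a and Gabpa, and the targeted gene Ihh, in wildtype (blue) and knockout (orange) mice, with mean and SD (n = 4 each). The groups do not overlap for Atp5o, Cox7a2l and Ihh, and they overlap for the other 3 genes.

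Promoter sequence was not used in the choice by name. Nuclear respiratory factor 1 and the ETS-family factor GABP are known activators of nuclear-encoded respiratory genes. RefSeq promoter windows of assembly GRCm38.p6, of 300 bases reaching from before the transcript start to just after it, were available for 63 of the 77 subunit genes. The NRF1 motif, GCGCANGCGC on either strand, was found for 14 of the 63 (22.2%) and for 1402 of all 27025 genes with a window (5.19%). The ETS core CCGGAAG, on either strand, was found for 16 (25.4%) and for 2683 of all (9.93%). Matches were allowed to overlap each other, and 4 genes (6.35%), Atp5h, Atp5k, Cox6a1 and Sdhd, held both. Either motif was found for 26 of the 63 genes (41.3%), and the other windows held neither. The windows of subunit genes had a median GC content of 57.5%, beside 52.7% over all windows, and the comparison was not matched for it. A match is a description of letters and not a binding site.

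Windows of 2 genes are printed because they frame the results, Cox6a1 as the level general isoform with both motifs and Atp5o as the member with the smallest p. The Cox6a1 window is chr5:115348909-115349208 and the Atp5o window is chr16:91931581-91931880, both on the minus strand and written 5′ to 3′ on it. Capitals mark the NRF1 motif and the ETS core, read on either strand.
Cox6a1: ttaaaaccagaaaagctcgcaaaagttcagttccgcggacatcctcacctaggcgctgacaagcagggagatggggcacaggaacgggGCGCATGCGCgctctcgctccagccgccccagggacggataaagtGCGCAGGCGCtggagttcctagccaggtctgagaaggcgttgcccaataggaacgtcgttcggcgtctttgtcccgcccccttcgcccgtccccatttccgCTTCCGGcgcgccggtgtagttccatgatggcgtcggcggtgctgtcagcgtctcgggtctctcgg
Atp5o: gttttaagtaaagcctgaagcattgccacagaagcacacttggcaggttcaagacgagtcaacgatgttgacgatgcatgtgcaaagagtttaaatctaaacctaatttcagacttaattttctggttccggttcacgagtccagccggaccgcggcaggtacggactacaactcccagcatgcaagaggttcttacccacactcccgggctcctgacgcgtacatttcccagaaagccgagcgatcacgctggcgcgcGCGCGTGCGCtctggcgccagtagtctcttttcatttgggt
The Cox6a1 window holds 2 NRF1 motifs and 1 ETS core, and the Atp5o window holds 1 NRF1 motif and 0 ETS cores.

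Differences between genotypes also lay within the spread between mice when whole complexes were scored. The score over all 72 subunits was 0.0587, -0.00675, 0.0556 and -0.196 in wildtype and 0.0834, 0.0614, 0.0898 and -0.147 in knockout mice. Wildtype 4 and knockout 4 were the low mice, and the other 6 lay within a narrow band. The means differed by 0.044, with a within-group SD of 0.116. By complex, the differences in score were 0.0458 for complex I, -0.112 for complex II, 0.000777 for complex III, 0.0581 for complex IV and 0.0737 for complex V, with within-group SDs of 0.101 to 0.133. Each was smaller than the within-group SD of its own complex, but for complex II the difference of -0.112 nearly equalled the SD of 0.113. The complex IV score includes Cox6a2, which ran from 4.85 in wildtype 1 to 8.99 in knockout 2 along the skeletal muscle score. That score and its SD therefore partly follow 1 muscle transcript, and the score without Cox6a2 was not computed.

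The low mice were low across most members. Wildtype 4 had the lowest value of all mice for 34 of the 72 subunit genes (47.2%), beside 19.6% of all tested probes. Knockout 4 had it for 28 (38.9%), beside 23.8%. The split between these mice depended on the scaling. Under median scaling wildtype 4 was lowest for 56 (77.8%, beside 28.9% of all tested probes) and knockout 4 for 11 (15.3%, beside 20.5%). Knockout 4 thus lay below the share of all probes there. Under cyclic loess the counts were 24 (33.3%, beside 17.7%) for wildtype 4 and 34 (47.2%, beside 23.4%) for knockout 4. Knockout 4 also had the low colonocyte score given above and the highest proliferation score, 0.826, while wildtype 4 had a colonocyte score of 0.0792 and the highest score of skin and stratified epithelium, 1.98. The part of these markers in the low subunit values was not tested.

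**Figure D4:**
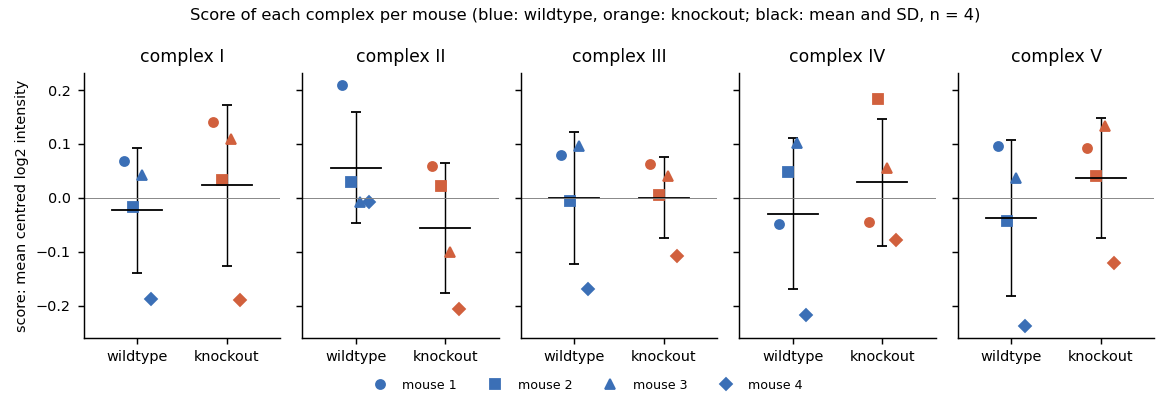
Score of each complex per mouse, in log2 units (vertical axes), for wildtype (blue) and knockout (orange) mice, with mean and SD (n = 4 each). Marker shapes give the mouse number within a genotype, which is not taken here to pair mice across genotypes. The number 4 mice are the lowest of their group in all panels, at -0.237 to -0.00701 in wildtype and -0.206 to -0.0785 in knockout mice. The complex IV score includes Cox6a2, which was high in the mice high in skeletal muscle transcripts.

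Other mitochondrial gene lists, drawn up with earlier results of these data known, gave 0 called genes each by limma. The mitochondrial ribosome, which translates the subunits encoded in mitochondrial DNA, had 55 of 70 tested genes higher by value in the knockout and a median of 0.11, with 51 to 66 higher under the scalings tried. Its smallest p belonged to Mrps27, a small-subunit protein, which read 8.46, 8.57, 8.32 and 8.12 in wildtype and 9.27, 8.72, 8.93 and 8.91 in knockout mice. The groups did not overlap, and the difference was 0.59 (SE 0.153, limma adjusted p = 0.336). The groups of 4 ribosomal protein genes (5.71%) did not overlap, beside 7.68% of all named genes.

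Protein import and inner membrane organisation had 18 of 20 tested genes higher by value, with a median of 0.20 and the same count under every scaling tried. The median was 0.13 without background correction, and 15 genes were higher with array position added or without wildtype 4. The groups did not overlap for 5 (25.0%), beside 7.68% of all named genes. Hspd1 and Hspe1, the chaperonin and co-chaperonin that fold imported proteins, differed by 0.44 (SE 0.127) and 0.42 (SE 0.133), with every knockout mouse above every wildtype mouse for both. Their limma adjusted p was 0.362 and 0.387. Timm17b, part of the inner membrane translocase, differed by -0.51 (SE 0.189). Beside these lists, all 19 tested proliferation genes were higher by value, with a median of 0.82 that was 0.47 with array position added, and 15 of 16 colonocyte genes were lower, with a median of -0.29 that was -0.058 without knockout 4 and 0.35 with array position added. All 13 smooth muscle genes were lower, with a median of -0.46 that was -0.098 with array position added. Their part in the mitochondrial lists was not tested.

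The lists nearest the chain in function had medians close to 0 that moved with the scaling. Electron carriers and adenine nucleotide exchange had 10 of 14 genes higher by value and a median of 0.036, which was 0.14 with 13 higher under median scaling and 0.20 with array position added. Cycs, the somatic cytochrome c, differed by 0.18 (SE 0.185). The citric acid cycle and pyruvate dehydrogenase had 10 of 16 higher and a median of 0.03, which was 0.14 under median scaling and 0.19 with array position added. Suclg1, a subunit of succinyl-CoA ligase, averaged 14.29 ± 0.0576 over wildtype and 14.12 ± 0.0801 over knockout mice (SD, n = 4 each), without overlap, a difference of -0.18 (SE 0.0999, limma adjusted p = 0.532). It was the 1 gene of this list without overlap (6.25%), beside 7.68% of all named genes. Assembly factors outside the rule had 10 of 24 higher and a median of -0.0099, which was 0.094 under median scaling. Among them Taco1, an activator of the translation of a complex IV core subunit, was detected on 7 arrays and differed by 0.53 (SE 0.155, limma adjusted p = 0.364) without overlap. It was the 1 gene of its list without overlap (4.17%). Cox18, which inserts a core subunit of complex IV into the membrane, differed by 0.38 (SE 0.141).

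The regulators of mitochondrial biogenesis went both ways, with 7 of 12 higher by value and a median of 0.03. Ppargc1a, the coactivator that drives mitochondrial gene expression together with NRF1 and other factors, read 10.26, 9.82, 8.31 and 9.05 in wildtype and 8.70, 8.32, 8.41 and 7.61 in knockout mice. Wildtype 3 lay within the knockout range, and the other wildtype mice lay above all knockout mice. The difference was -1.10 (SE 0.409, 95% interval -2.02 to -0.18, limma adjusted p = 0.410). Gabpa, the DNA-binding subunit of GABP, differed by 0.50 (SE 0.212, limma adjusted p = 0.450). Glycolysis, the pathway that makes ATP without the chain, had 11 of 14 genes higher by value. Its median of 0.21 was 0.11 with array position added. Pgk1, phosphoglycerate kinase, was detected on 6 arrays and differed by 1.08 (SE 0.266, limma adjusted p = 0.310). Its wildtype values of 4.77 to 5.61 lay near the level of undetected probes, which makes this size uncertain. Every knockout mouse lay above every wildtype mouse. In this list the groups did not overlap for 2 genes (14.3%), beside 7.68% of all named genes.

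**Figure D5:**
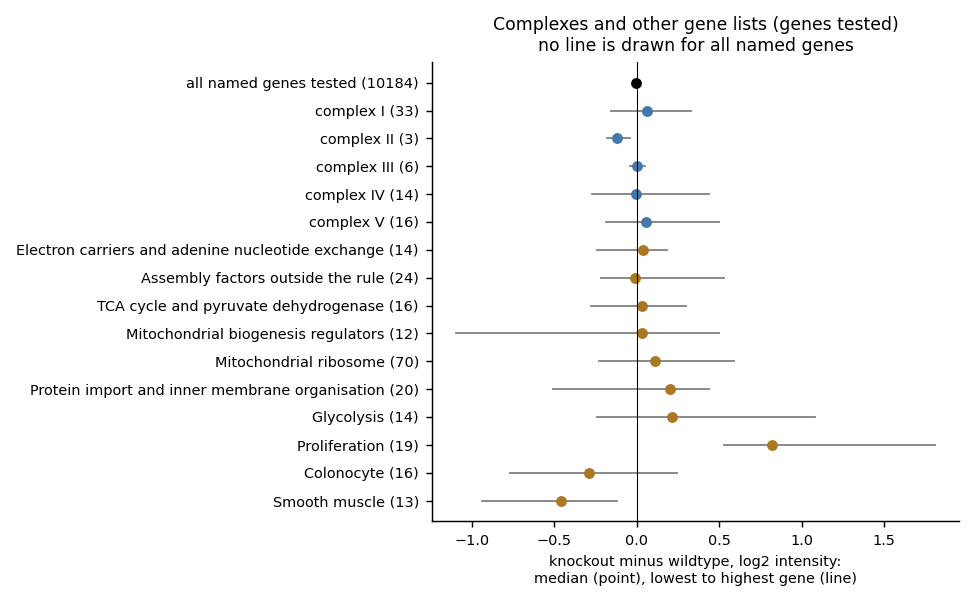
Median (point) and lowest to highest gene (line) of the log2 difference, knockout minus wildtype, for the 5 complexes (blue), the other lists (brown) and all named genes tested (black), with the number of genes tested in brackets. The complexes have medians of -0.12 to 0.061, while proliferation has 0.82 and smooth muscle -0.46. Under median scaling, and in several other settings, the medians of complexes III and IV turn positive.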

How the data were processed

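Total RNA from 8 whole colons was amplified and labelled with Cy3 for an Illumina beadchip, per the labels. The deposited table holds 2 columns per array, per the file headers: the mean signal intensity of each probe and its detection p-value. The submitters' processing notes name GenomeStudio, whose version the sources used here do not state. These intensities were treated as not background subtracted, since their lowest value per array is 102.6 to 120.0. The authors' second table, of intensity values, lies within 0.0278 on the log2 scale of a quantile normalization of the first on the linear scale, and served as an alternative. Its values are linear and not centred by gene, and no source states how it was made. There were 0 columns of other samples.

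Probes were named from the platform annotation. All 105 member probes matched RefSeq (GRCm38.p6) by Entrez ID and 0 symbols changed. Where more than 1 probe of a gene was tested, that with the highest mean was taken, which applied to 14 members; in 5 (Atp5j, Ndufaf5, Ndufs4, Sdhc and Uqcr10) the signs of the probes disagreed. Background was corrected by normexp from the detection p-values, with an offset of 16, then quantile normalized and logged to base 2 (neqc, limma 3.58.1, R 4.3.3). Genotype was the only term of a lmFit and eBayes fit on all 8 arrays, two-sided, with Benjamini-Hochberg adjustment over all 14754 probes tested and calls at an adjusted p under 0.05. The number of arrays limits the precision. The fit was tested on simulated data.

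The members and lists were chosen with earlier results of these data known, so lists are described by counts and medians with no test. Genes named are, per complex, the 5 with the smallest p, the complex II genes, the tissue isoforms with their partners, and the leading genes of each list; the text names some of the last. Alternatives were the background correction, scaling, detection filter, replicate block, array position, array weights, variance prior, probe averaging, covariates for the skeletal muscle score and sex pattern, and leaving out mice.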

Additional observations from a re-analysis of the deposited data

Results flagged for a closer look

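In groups of 4 mice, the gap between the most extreme value and its neighbour was set against the group's range (Dixon's critical value for the 95% level). Of 76 groups tested, 9 exceeded it, where chance gives about 1 in 20 for independent groups. These groups come from the same mice and include scores made from the same genes. No excess over chance can be read from the count. All 9 concern log2 intensities or scores of single mice.

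Knockout 4 was far below the other knockout mice for Uqcrb (13.25, the others 13.60 to 13.66), for Atp5h (12.49, the others 13.02 to 13.13), for Atp5g2 (12.00, the others 12.33 to 12.38) and for the score over all subunits (-0.147, the others 0.0614 to 0.0898). Wildtype 1 was far above the other wildtype mice for Cox7b (11.16, the next 10.42), for Atp5g2 (12.42, the next 12.26) and for the complex II score (0.209, the next 0.0293). Wildtype 4 was above the other wildtype mice for Sdhc (12.95, the next 12.65), and knockout 3 above the other knockout mice for Atp5a1 (13.33, the next 13.03). Knockout 4 also had the lowest array weight, 0.313.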

How the results depend on the processing

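No member probe was called under any refit, and 0 to 12 of those tested had an unadjusted p under 0.05. Over the 32 members that the naming rule gave (without Ndufv1, Ndufaf4, Ndufaf7 and Ndufs5-ps), 670 values from 21 refits gave 0 calls and a smallest adjusted p of 0.278, with 73 of the opposite sign to the value reported. Of all probes, 2 were called. The number was 0 without background correction, with the authors' table, with detection p under 0.01 on all arrays, with array position or the sex pattern as a term and without the 4 mice high in skeletal muscle transcripts, where 576 to 1696 probes had an unadjusted p under 0.05. It was 1 with a trended and robust variance prior, and 0 to 14 when each mouse was left out, with 14 without knockout 1. With the replicate number as a block it was 0. The titles state no pairing, and the pairing check gave correlations of 0.136, 0.21, -0.178 and -0.038. Such weak values of both signs show no pairing by number but cannot exclude one.

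Array position as a term moved the medians to 0.34, 0.20, 0.26, 0.24 and 0.32 for complexes I to V, the subunits higher in the knockout to 66, those within 1.5-fold to 4 and those under 0.2 to 18. Positions A to D were all wildtype and E to H all knockout. Median scaling gave 66 subunits higher and a complex III median of 0.11. Without the 4 mice high in skeletal muscle transcripts 61 were higher and 27 lay within 1.5-fold. The cause of these shifts was not tested. Leaving out each mouse gave 31 to 55 subunits higher. Values near the top of the scale and the 4 arrays per genotype limit what can be seen.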
